A study of Mus musculus with 28 samples.

Results

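The comparison described here set satellite cells of SIRT1mKO mice (KO) against those of WT mice after both had spent 24 hours in differentiation medium with 2% horse serum. It holds 4 polyA RNA-seq libraries, 2 of KO_Diff and 2 of WT_Diff, out of 18 RNA-seq libraries and 28 samples in the series, and they were chosen because the deposited table of this comparison lists them. KO_Diff cells came from animals in which a Pax7cre/+ knock-in recombines the floxed exon 4 of Sirt1, on a C57Bl/6 background per the labels. WT_Diff cells came from animals labelled WT on the same background, and the labels do not say whether these carried the Cre allele. Both groups were isolated by FACS, expanded in medium with serum and bFGF, and then moved to the low-serum medium. The Cre is driven from the Pax7 locus, so recombination starts in cells of the Pax7 lineage and also affects 1 allele of Pax7 itself. The labels give no age, sex or number of animals nor whether each library stands for its own animal or culture. The spread behind every p-value is therefore that between these libraries and may be technical.

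Satellite cells are the resident stem cells of skeletal muscle. Once activated they proliferate as myoblasts that express Pax7, Myf5 and Myod1, and on withdrawal of growth factors they switch on Myog, leave the cell cycle, fuse into myotubes and build sarcomeres, the contractile units of muscle. SIRT1 is a deacetylase that uses NAD as cosubstrate and removes acetyl groups from histone H4 lysine 16, an acetylation mark of open chromatin, and from several transcription factors. The comparison asks how cells without SIRT1 deacetylase activity differ once differentiation has been induced.

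The libraries held 71858446 to 82825550 fragments assigned to genes, and 14482 genes passed the filter on low counts. The table numbers the libraries of each group with an index, 0 and 1, which is not the replicate number of the labels. The index 1 libraries of both genotypes stood far along in differentiation compared with the index 0 libraries. Across genes, the index 1 minus index 0 difference correlated between genotypes (Pearson r = 0.79, a description across genes, which are not replicates), and 1503 genes were higher and 1366 lower in index 1 by more than 1 log2 unit in both genotypes. The inactive-X transcript Xist also separated the indices, at 786 CPM in KO and 1234 CPM in WT for index 0 and at 0.144 CPM in KO and 0.323 CPM in WT for index 1. The Y-linked Ddx3y was present in all 4 libraries (24.0 and 80.3 CPM in KO, 28.1 and 39.9 CPM in WT, index 0 first). KO and WT were therefore compared within each index, by an edgeR quasi-likelihood fit with the index as a block, and levels are given as CPM (counts scaled to a common library size after TMM) in the order index 0, index 1. A gene is called where its Benjamini-Hochberg adjusted p is under 0.05.

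In this fit 147 genes (1.02% of those tested) were called, 131 of them higher in KO (0.905%) and 16 lower (0.11%). All 147 had the same sign in both indices, against 46.5% of all genes tested, and a fit with the index as a block favours such genes. Without the index as a block 0 genes were called by edgeR, with 27 at an unadjusted p under 0.05, and 0 were called when any of the 4 libraries was left out of such a fit. With the block, DESeq2 called 99 genes and limma on log2(FPKM + 1) called 10. The block leaves 1 residual degree of freedom, and the fit took nearly all of its spread from the trend over genes (median prior degrees of freedom 950.5), so each adjusted p below rests on that shared estimate more than on the gene's own 2 differences.

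Gene length moved with the genotype difference in index 1. The Spearman rho between the KO minus WT difference and effective gene length over 14482 genes was 0.403 in index 1 and 0.00903 in index 0. For the index 1 minus index 0 difference, rho was −0.338 in WT and −0.137 in KO. The WT library of index 1 held the fewest fragments (71858446) and had 15458 genes above 0, against 16657 to 16850 in the others. The part of this library in the trend and in the index 1 differences was not tested. In index 1 the median difference ran from −0.39 in the shortest of 10 length classes to 0.60 in the longest, as the plot against gene length shows, and 35 of the 131 genes called higher lay in the longest class. A fit that took out a length trend per library called 140 genes, 121 higher and 19 lower, and 107 of them were among the 147. Where this length fit ends a call, that is said beside the gene.

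**Figure D1:**
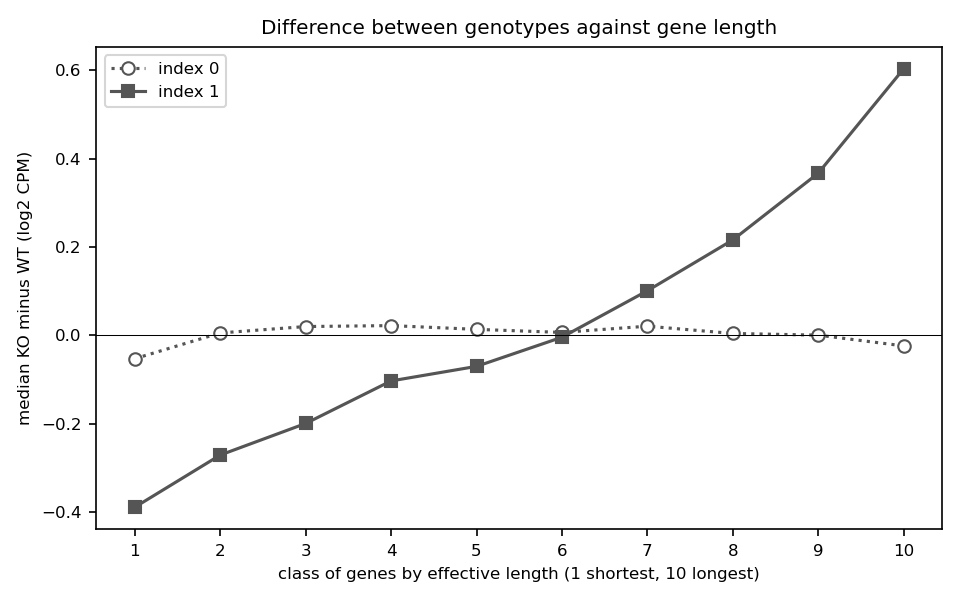
Median KO minus WT difference (log2 CPM) of genes in each of 10 classes of effective length, from the shortest to the longest, in index 0 (open circles) and index 1 (filled squares). The medians in index 0 lie near 0 throughout, and those in index 1 run from −0.39 to 0.60.

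**Figure D2:**
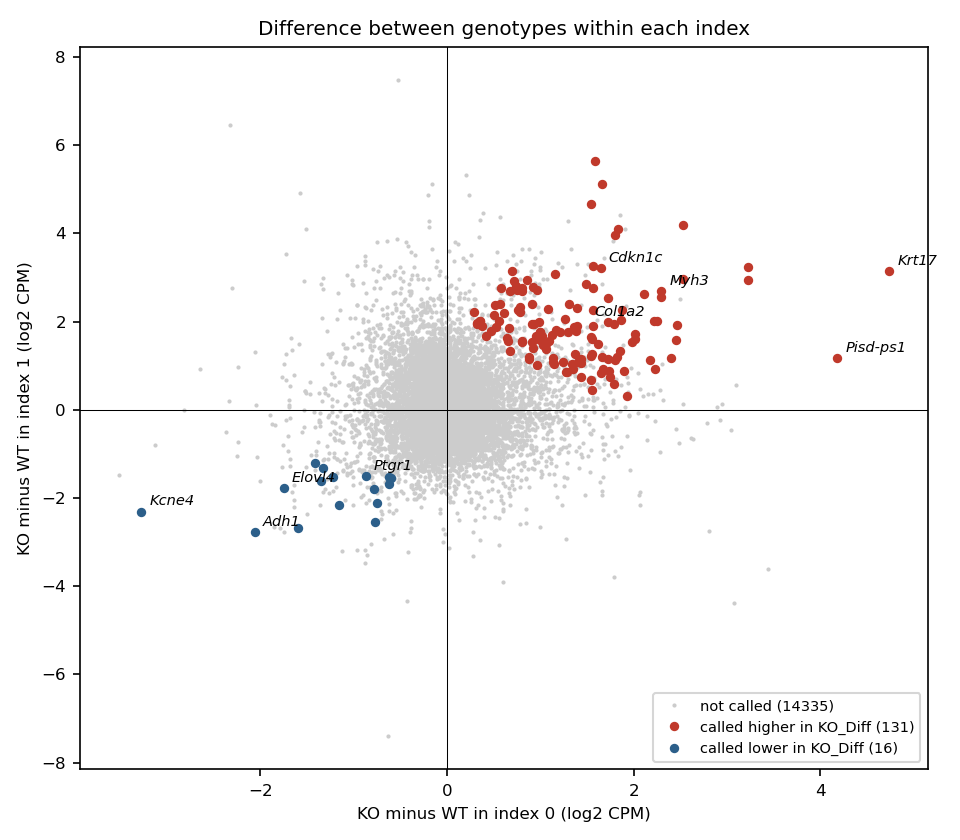
KO minus WT difference of every gene tested in index 0 (horizontal, log2 CPM) and in index 1 (vertical, log2 CPM), with the 131 genes called higher in KO in red, the 16 called lower in blue and the rest in grey. All called genes lie in the upper right or lower left part of the plot, and Pisd-ps1 differs mostly in index 0, by 4.18 against 1.18 in index 1.

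Sirt1 was transcribed in every library. It was at 41.4 and 28.8 CPM in KO and at 52.1 and 28.2 CPM in WT, a log2 difference of −0.15 (SE 0.30, adjusted p = 0.9997). The difference was −0.33 in index 0 and 0.03 in index 1, and a total per gene cannot show the loss of exon 4. Of 18 measured genes of sirtuins and NAD metabolism 0 were called, and the smallest p-values belonged to the nuclear sirtuins Sirt6 (−0.40) and Sirt7 (−0.37), both with adjusted p = 0.9997. Subunits of the complexes that acetylate H4K16 also held 0 called genes of 13.

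Among regulators of the lineage, the late factor Myog rose and the early ones were not called. Myogenin, which drives the final step of differentiation, was at 149 and 3619 CPM in KO and at 61.2 and 2015 CPM in WT. KO was higher than WT in each index, while the indices differed far more than the genotypes. The log2 difference was 1.06 (SE 0.30, adjusted p = 0.0442), or 1.19 with adjusted p = 5.337e-05 in the length fit. Myod1, the determination factor, was at 1390 and 2067 CPM in KO and at 1041 and 2270 CPM in WT, with opposite signs in the indices (log2 difference 0.14, adjusted p = 0.9997). Pax7 (63.0 and 41.2 CPM in KO, 76.4 and 37.3 CPM in WT) and Myf5 (39.5 and 45.4 CPM in KO, 45.6 and 41.8 CPM in WT) differed by −0.07 and −0.04, each with adjusted p = 0.9997. Myog was the only call among 16 measured myogenic transcription factors, whose median log2 difference was 0.19 against 0.02 over all genes tested. Mef2c, a partner of the myogenic factors, was at 2.84 and 87.3 CPM in KO and at 3.48 and 29.9 CPM in WT (0.65, adjusted p = 0.7615).

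**Figure D3:**
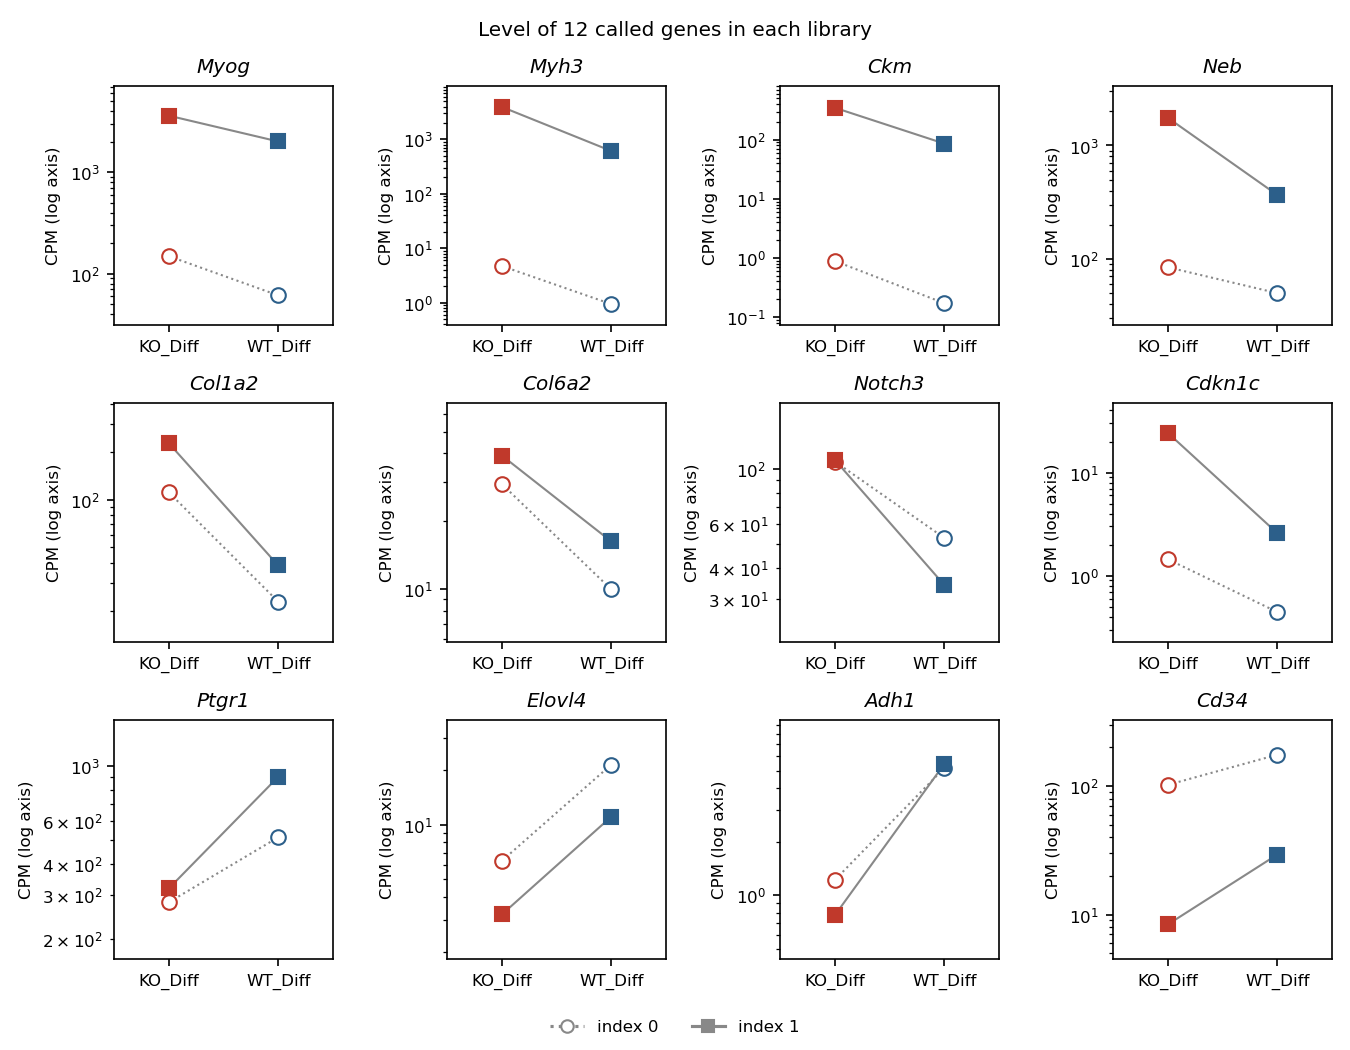
Level (CPM, log axis) of 12 called genes in the KO_Diff libraries (red, left) and the WT_Diff libraries (blue, right), with index 0 as open circles joined by a dotted line and index 1 as filled squares joined by a solid line. For Myog, Myh3 and Ckm both index 1 libraries lie above both index 0 libraries, and within each index KO lies above WT, while Ptgr1, Elovl4, Adh1 and Cd34 slope the other way.

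The 12 genes with the largest called increases at 5 CPM or more held 5 genes of the sarcomere and its assembly, and the windows around the start of 4 called muscle genes are shown because they hold the CAGCTG form of the E-box, the element bound by MyoD and myogenin. The capitals mark CAGCTG, and each window covers 250 bases before and 50 bases from the annotated start in RefSeq, build GRCm38.p6, written along the gene's strand.
Ckm (chr7:19410844-19411143, plus strand): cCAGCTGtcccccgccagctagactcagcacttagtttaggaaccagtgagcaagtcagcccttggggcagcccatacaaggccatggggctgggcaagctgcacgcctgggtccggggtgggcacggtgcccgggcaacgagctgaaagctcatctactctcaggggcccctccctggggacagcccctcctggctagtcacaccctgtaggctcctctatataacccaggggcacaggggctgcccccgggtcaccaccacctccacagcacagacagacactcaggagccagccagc
Mybph (chr1:134193198-134193497, plus strand): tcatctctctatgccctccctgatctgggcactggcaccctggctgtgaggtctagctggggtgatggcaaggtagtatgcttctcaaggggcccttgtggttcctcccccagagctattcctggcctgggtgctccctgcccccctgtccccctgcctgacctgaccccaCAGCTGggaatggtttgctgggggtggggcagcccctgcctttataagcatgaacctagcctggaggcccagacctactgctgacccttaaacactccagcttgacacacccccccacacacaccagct
Myoz2 (chr3:123034938-123035237, minus strand): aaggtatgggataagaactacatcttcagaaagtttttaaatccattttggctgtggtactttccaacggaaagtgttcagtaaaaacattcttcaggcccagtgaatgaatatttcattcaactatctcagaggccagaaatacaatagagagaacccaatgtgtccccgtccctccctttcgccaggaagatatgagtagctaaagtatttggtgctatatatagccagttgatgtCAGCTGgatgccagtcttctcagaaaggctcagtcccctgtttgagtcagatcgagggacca
Capn3 (chr2:120463343-120463642, plus strand): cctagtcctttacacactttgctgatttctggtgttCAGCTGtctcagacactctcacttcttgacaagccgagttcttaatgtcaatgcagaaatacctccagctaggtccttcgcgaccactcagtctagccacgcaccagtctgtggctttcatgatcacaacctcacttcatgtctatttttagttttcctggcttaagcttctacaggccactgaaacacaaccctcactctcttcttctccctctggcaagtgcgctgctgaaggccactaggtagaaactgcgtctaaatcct
CAGCTG, searched on both strands, was in 27 of the 97 windows found for genes called higher (27.8%) and in 4 of 13 for genes called lower (30.8%), against 15.5% of the windows of genes tested and 16.1% of all 27025 windows. The windows of Myog, Myh3 and Col1a2 held no CAGCTG. The general E-box CANNTG, which includes CAGCTG, was in 71.1% of windows of genes called higher, in 63.7% of those of genes tested and in 72.1% of all windows. For the SRF site a loose pattern was searched, which fixed only the outer bases and allowed any base between them. A match to it need not be an SRF site. This loose pattern was in 81.4% of windows of genes called higher, in 86.7% of those of genes tested and in 73.0% of all windows. These matches describe the letters of the windows and were not tested.

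Genes of the sarcomere made up the largest group of calls. Of 45 measured members 24 rose in KO and 0 fell, against 0.905% and 0.11% over all genes, and the median log2 difference was 1.23 against 0.02. The members had a median difference of 1.03 in index 0 and 1.13 in index 1, and 38 of them were higher in KO in both. In the length fit 27 were called, with medians of 1.09 and 1.32. The summed level of the list was 1774 and 47722 CPM in KO and 1448 and 21278 CPM in WT. More muscle cells in a library and more muscle RNA per cell cannot be told apart in bulk samples.

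Myosin heavy chains, the motor proteins of the thick filament, led the list. The embryonic form Myh3 was at 4.72 and 3933 CPM in KO and at 0.945 and 612 CPM in WT (log2 difference 2.52, SE 0.32, adjusted p = 4.804e-11). The perinatal form Myh8 was at 1.62 and 725 CPM in KO and at 0.273 and 190 CPM in WT (2.17, SE 0.30, adjusted p = 3.176e-09). The slow form Myh7 was at 0.721 and 99.7 CPM in KO and at 0.148 and 16.2 CPM in WT (2.50, SE 0.36, adjusted p = 1.059e-08). In each of these forms KO exceeded WT in both indices, and the index 1 libraries stood far above the index 0 libraries. The fast adult form Myh1 also rose, at 5.42 and 1436 CPM in KO and 2.64 and 516 CPM in WT (1.27, SE 0.29, adjusted p = 0.002886). Per length, the index 1 libraries ranked Myh3, Myh1, Myh8 and Myh7 from high to low in both genotypes, at 649, 236, 117 and 16.3 FPKM in KO and at 99.4, 83.4, 30.1 and 2.60 FPKM in WT. Myh3 lay well above Myh1 in the KO library and close to it in the WT library. The other adult fast forms Myh4 (4.68 FPKM in KO and 1.10 in WT, index 1) and Myh2 (0.38 and 0.10 FPKM) were not called.

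Thin filament genes rose as well. Cardiac alpha-actin Actc1, the actin of developing muscle, was at 10.03 and 2584 CPM in KO and at 3.43 and 823 CPM in WT (1.601, adjusted p = 7.824e-05). The slow troponin Tnni1 was at 4.72 and 870 CPM in KO and at 1.40 and 475 CPM in WT (1.28, adjusted p = 0.001886). The fast troponin Tnnt3 (1.23) and, from the thick filament, the myosin light chain Myl1 (1.24) rose by like amounts. Slow and fast forms were thus both among the calls. The giant thin filament ruler Neb was at 84.2 and 1750 CPM in KO and at 49.8 and 366 CPM in WT (1.51, SE 0.30, adjusted p = 0.0002692). Its difference was 0.76 in index 0 and 2.26 in index 1, and 0.87 and 1.09 in the length fit, which kept the call.

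Proteins that hold and build the filaments rose with them. At the Z-disc, the alpha-actinin Actn3 (41.7 and 595 CPM in KO, 11.5 and 236 CPM in WT) rose by 1.59 (adjusted p = 8.347e-06) and Ldb3 by 1.501. The Z-disc calcineurin binder Myoz2 (0.116 and 31.8 CPM in KO, 0.0228 and 6.59 CPM in WT) rose by 2.27. The muscle LIM protein Csrp3 rose by 1.38. Mybph, a myosin binding protein, was at 3.39 and 858 CPM in KO and at 0.819 and 262 CPM in WT (1.86, adjusted p = 1.812e-07). Of 14 assembly factors 4 rose, against 0.905% over all genes. They were the myosin chaperone Unc45b (2.64 and 328 CPM in KO, 0.706 and 79.6 CPM in WT, 1.98), Kbtbd10 (Klhl41, 1.80), Klhl31 (1.43) and the titin-bound protease Capn3. Capn3 was at 0.116 and 27.8 CPM in KO and at 0.0228 and 4.05 CPM in WT (2.69). In index 0 Capn3 and Myoz2 were near the floor in both genotypes, so their differences lean on the index 1 pair. Cmya5 (2.31) and Filip1 (2.20), cytoskeletal proteins outside the lists, were also among the 12 largest increases.

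Membrane and calcium-handling genes held fewer calls, and the share called higher over all genes was 0.905%. Of 17 genes of fusion and membrane repair 1 rose, the membrane repair protein Trim72 (4.00 and 208 CPM in KO, 1.87 and 70.7 CPM in WT, 1.34, adjusted p = 0.00227). Of 16 dystrophin complex genes 2 rose, among them the syntrophin Sntb1 (1.77), whose call ended in the length fit (adjusted p = 0.9139). Of 26 genes of excitation-contraction coupling 5 rose: the calcium buffer Casq2 (2.30 and 448 CPM in KO, 1.14 and 132 CPM in WT, 1.42, adjusted p = 0.0002719), the voltage sensor Cacna1s (1.48), triadin Trdn (1.30), the calcium pump Atp2a1 (1.09) and the release channel Ryr1 (1.01). Ryr1 is a long gene and was not called in the length fit (0.57, adjusted p = 0.386). Among 13 muscle energy enzymes the creatine kinase Ckm (0.883 and 347 CPM in KO, 0.171 and 86.0 CPM in WT) rose by 2.13 (SE 0.32, adjusted p = 6.355e-08), and the phosphoglycerate mutase Pgam2 by 1.10 with differences of 1.93 and 0.31 in the indices. The general glycolysis (16 measured) and oxidative phosphorylation (24) lists held 0 calls each, with medians of 0.03 and −0.05. The interferon response list held 0 calls of 20, with a median of 0.21.

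**Figure D4:**
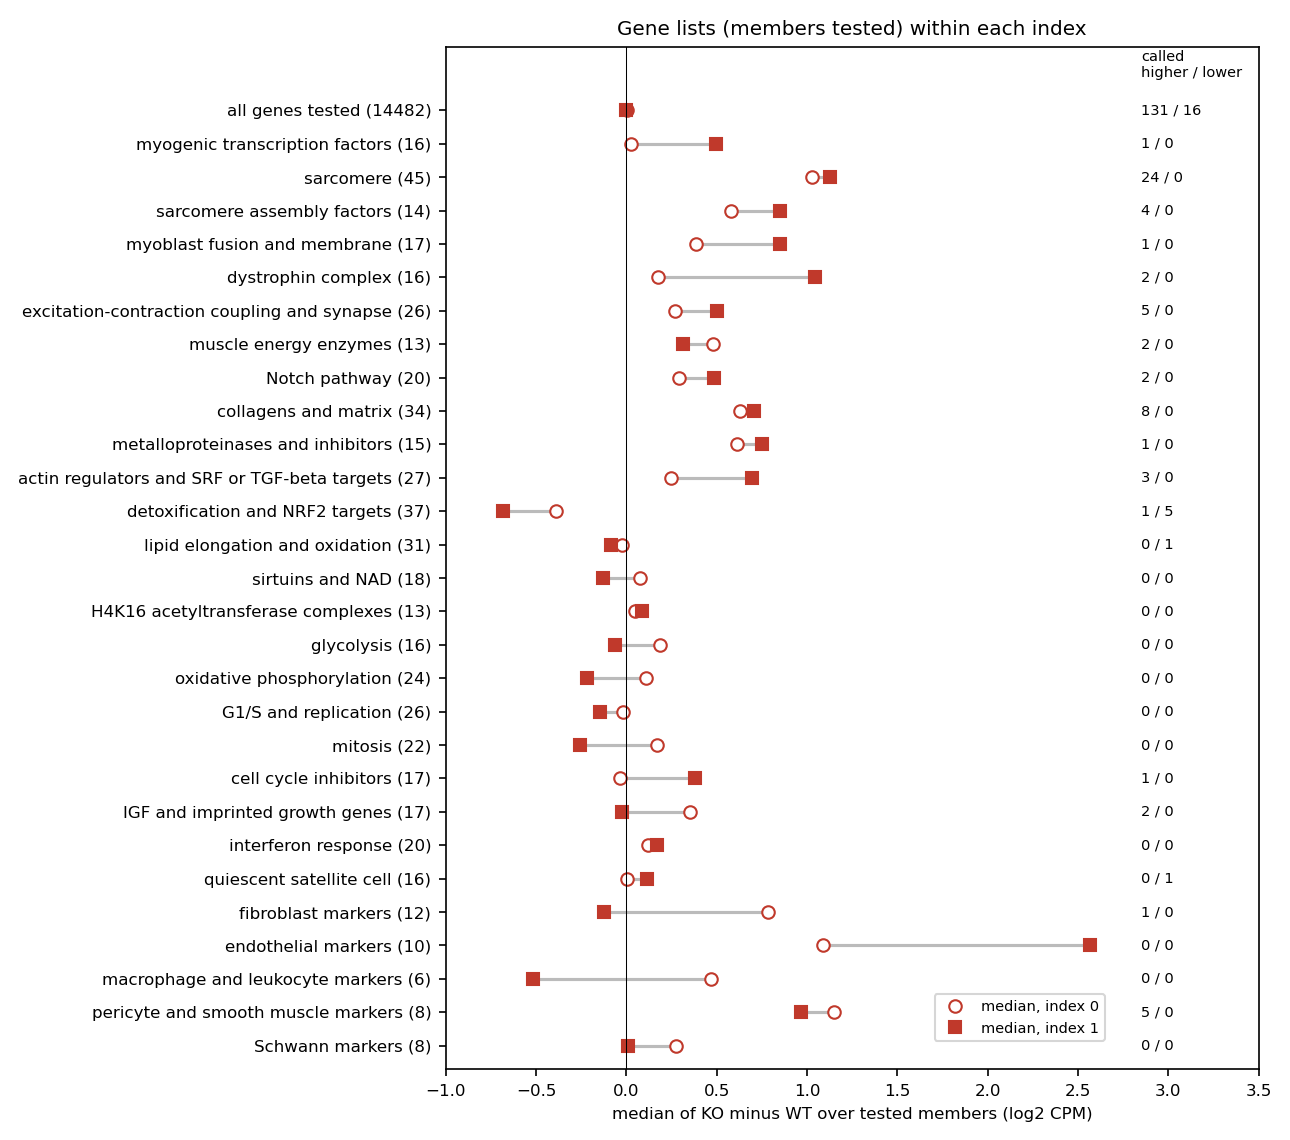
Median KO minus WT difference (log2 CPM) over the tested members of each gene list in index 0 (open circles) and index 1 (filled squares), with the number of members tested after each name and the numbers called higher and lower at the right, for lists with at least 6 members tested. The sarcomere, matrix and pericyte lists lie above 0 in both indices, and the detoxification list lies below 0 in both. The endothelial list, high in both with few fragments for most members, holds 0 calls.

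The Notch pathway, whose ligands on 1 cell activate receptors on its neighbour and hold satellite cells undifferentiated, held 2 calls of 20 measured genes. Both were higher in KO, against 0.905% called higher over all genes. The receptor Notch3 was at 107 and 108 CPM in KO and at 52.7 and 34.1 CPM in WT (1.34, SE 0.29, adjusted p = 0.001407). The KO libraries lay above both WT libraries, and the differences of 1.02 and 1.67 became 1.06 and 1.06 in the length fit. Its target Heyl, a repressor, was at 16.9 and 72.9 CPM in KO and at 7.03 and 17.5 CPM in WT (1.66, SE 0.31, adjusted p = 8.944e-05). The ligands Jag2 (0.62) and Dll1 (0.57) and the receptor Notch1 (0.58) were not called (adjusted p = 0.6917, 0.7904 and 0.7994). Of the 20 genes 14 were higher in KO in both indices, against 3379 of 14482 for all genes. The median of the list was 0.31, against 0.02 over all genes, and was 0.19 in the length fit.

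Of the genes that hold or drive the cell cycle 1 was called. The inhibitor Cdkn1c (p57), which rises as myoblasts leave the cycle, was at 1.44 and 24.2 CPM in KO and at 0.444 and 2.58 CPM in WT (2.52, SE 0.43, adjusted p = 8.347e-06). It was the only call of 17 cell cycle inhibitors, and the more abundant Cdkn1a was at 320 and 2393 CPM in KO and 267 and 1874 CPM in WT (0.31, adjusted p = 0.9997). The G1/S list (26 measured) and the mitosis list (22) held 0 calls, with medians of −0.06 and −0.01. Both were lower in index 1 than in index 0 in each genotype, by a median of 1.93 and 1.74 log2 units in KO and of 1.62 and 1.40 in WT.

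The insulin-like growth factor Igf2, which myoblasts release as they differentiate, was at 84.2 and 2262 CPM in KO and at 25.4 and 1021 CPM in WT (1.44, SE 0.29, adjusted p = 0.0004861). The imprinted zinc finger gene Peg3 was at 405 and 646 CPM in KO and at 317 and 159 CPM in WT (1.19, adjusted p = 0.01212). Its difference lay mostly in index 1 (2.02, against 0.35 in index 0) and was not called in the length fit (adjusted p = 0.0732). These were the 2 calls among 17 measured genes of the IGF list, against 0.905% called higher over all genes.

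Extracellular matrix genes were the other large group of increases. Of 34 measured members 8 rose and 0 fell, against 0.905% and 0.11% over all genes. The median was 0.66 against 0.02, and 28 members were higher in KO in both indices, against 3379 of 14482 for all genes. The summed level of this list was 4368 and 4825 CPM in KO and 3063 and 3181 CPM in WT. The median member was lower in index 1 than in index 0, with a difference of −0.63 in KO and −0.66 in WT. The fibrillar type I collagen chains led the group. Col1a2 was at 111 and 227 CPM in KO and at 22.7 and 38.5 CPM in WT (2.42, SE 0.29, adjusted p = 3.07e-12), the smallest p-value of all genes tested. Col1a1 was at 21.4 and 49.1 CPM in KO and at 3.70 and 6.25 CPM in WT (2.75, SE 0.34, adjusted p = 2.871e-11). Both KO libraries exceeded both WT libraries for each chain. The basement membrane collagen Col15a1 was low, at 3.82 and 1.08 CPM in KO and 0.387 and 0.117 CPM in WT (3.25, SE 0.62, adjusted p = 0.0001267). The microfibrillar chains Col6a1 (63.0 and 93.6 CPM in KO, 23.8 and 44.2 CPM in WT) and Col6a2 (29.2 and 39.1 CPM in KO, 9.94 and 16.2 CPM in WT) rose by 1.24 and 1.41. Thrombospondin 1, Thbs1, an adhesive matrix protein, was at 161 and 314 CPM in KO and at 85.6 and 59.4 CPM in WT (1.66, adjusted p = 1.461e-05). Periostin, Postn (1.30), and the fibril-regulating chain Col5a1 (1.14) completed the calls, the last not in the length fit (adjusted p = 0.1319). The abundant Col3a1 (534 and 310 CPM in KO, 378 and 234 CPM in WT) and Sparc (776 and 2000 CPM in KO, 676 and 1553 CPM in WT) were not called (adjusted p = 0.9704 and 0.9997). Timp3, an inhibitor of matrix proteases, was the only call of 15 metalloproteinases and inhibitors, at 23.9 and 26.3 CPM in KO and 11.96 and 7.78 CPM in WT (1.38, adjusted p = 0.008296).

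Some actin regulators and some genes listed as pericyte and smooth muscle markers rose in the same libraries. Smooth muscle actin Acta2, which differentiating myoblasts also express, was at 148 and 2972 CPM in KO and at 62.8 and 1409 CPM in WT (1.16, adjusted p = 0.01544). Tagln rose by 1.06 and palladin, Palld (34.8 and 135 CPM in KO, 19.9 and 19.9 CPM in WT), by 1.78, the call of Palld ending in the length fit (adjusted p = 0.62). These were the 3 calls among 27 actin regulators and targets of SRF or TGF-beta, against 0.905% called higher over all genes. Of 8 measured pericyte and smooth muscle markers 5 rose, Pdgfrb (4.64 and 15.5 CPM in KO, 0.956 and 3.83 CPM in WT, 2.14, adjusted p = 0.000141), Notch3, Acta2, Tagln and Abcc9 (1.68, not called in the length fit, adjusted p = 0.1058). Over all genes 0.905% were called higher, and Notch3, Acta2 and Tagln were counted in other lists as well. All 8 markers were higher in KO in both indices, with a median of 1.25. The summed level of the 8 was 415 and 3381 CPM in KO and 223 and 1647 CPM in WT, mostly Acta2 in index 1. Below the filter, Higd1b was at 0 in all 4 libraries, and Kcnj8 had 4 and 1 fragments in KO and 25 and 0 in WT.

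Markers of other cell types gave the following levels. Of 12 measured fibroblast markers 1 was called, the secreted protein Islr (27.4 and 56.7 CPM in KO, 7.90 and 37.6 CPM in WT, 1.19), and the list summed to 469 and 736 CPM in KO and 340 and 602 CPM in WT. The list's median was 0.78 in index 0 and −0.12 in index 1, with 5 members higher in KO in both indices and 0 lower in both. Among its defining genes, Pdgfra was at 5.45 and 0.997 CPM in KO and 2.90 and 1.75 CPM in WT, and Dcn at 24.4 and 0.866 CPM in KO and 9.50 and 1.07 CPM in WT. Of 10 measured endothelial markers 0 were called, and the list summed to 11.1 and 21.4 CPM in KO and 9.22 and 37.5 CPM in WT, mostly Vwf in index 1. The median of the 10 was 1.59 (1.09 in index 0 and 2.56 in index 1), with 7 higher in KO in both indices and 1 lower in both. Most members held few fragments. In the WT library of index 1, Kdr, Flt1, Tie1 and Robo4 had 0 fragments and Cdh5 had 4. The KO library of index 1 had 13, 22, 16, 14 and 62, so the index 1 median leans on counts near the floor in 1 library. The part of pericytes, fibroblasts and endothelial cells in the matrix result was not tested. Leukocyte markers (6 of 13 measured, 0 called) summed to 12.2 and 6.09 CPM in KO and 15.7 and 12.8 CPM in WT, with Emr1, C1qa, C1qb and C1qc at 0 in all 4 libraries. Lymphocyte (1 of 10 measured), Schwann (8 of 8), erythroid (1 of 6) and adipocyte (2 of 7) markers held 0 calls, and Cd3g, Ms4a1, Nkg7, Hba-a1, Hbb-b1 and Hbb-b2 were at 0 throughout.

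Of the 16 genes lower in KO, 5 belonged to the list of detoxification enzymes, many of which are targets of the oxidative stress factor NRF2. Of the list's 37 measured members 5 fell and 1 rose, against 0.11% and 0.905% over all genes. The median was −0.57, and 30 members were lower in KO in both indices, against 3359 of 14482 for all genes. The median was −0.39 in index 0 and −0.69 in index 1, and the length fit gave −0.39 and −0.40 with 6 members called lower. Alcohol dehydrogenase Adh1, which oxidizes retinol and other alcohols, was at 1.22 and 0.774 CPM in KO and at 5.17 and 5.44 CPM in WT (−2.44, SE 0.48, adjusted p = 0.0001844). Prostaglandin reductase Ptgr1 was abundant, at 281 and 320 CPM in KO and at 515 and 903 CPM in WT (−1.18, SE 0.28, adjusted p = 0.00622). For both genes the KO libraries lay below both WT libraries. The glutathione transferase Gsta4, which clears lipid aldehydes, was at 247 and 268 CPM in KO and at 376 and 789 CPM in WT (−1.08, adjusted p = 0.01809). Gsta1 (5.79 and 6.31 CPM in KO, 14.8 and 19.4 CPM in WT) fell by 1.49 and is uncertain, since it has near-identical copies among which fragments can be divided. The carbonyl reductase Cbr3 was at 49.0 and 29.5 CPM in KO and at 75.2 and 85.4 CPM in WT (−1.07, adjusted p = 0.035). The quinone reductase Nqo1, named here after its values were seen as a widely used NRF2 target, was at 129 and 84.7 CPM in KO and at 194 and 193 CPM in WT and was not called (−0.89, adjusted p = 0.07949). Nfe2l2, which encodes NRF2, and its inhibitor Keap1 differed by −0.11 and 0.01 (adjusted p = 0.9997 each). The member that rose, the cytochrome P450 Cyp1b1 (2.01 and 7.29 CPM in KO, 0.751 and 1.95 CPM in WT, 1.67), was not called in the length fit (adjusted p = 0.09299). NRF2's core TGANNNNGC, on either strand, was in 8 of 13 windows of genes called lower (61.5%), in 43.2% of those of genes tested and in 41.4% of all windows. The 13 windows are those found for all genes called lower, inside and outside this list. This pattern is loose, a match need not be an NRF2 site, and the shares were not tested.

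Further genes were called lower outside that list. Elovl4, an elongase of very long fatty acids, was at 6.34 and 3.21 CPM in KO and at 21.4 and 11.1 CPM in WT (−1.77, SE 0.37, adjusted p = 0.0006986). Its difference was nearly equal in the indices (−1.75 and −1.78) and it was the only call of 31 genes of lipid elongation and oxidation. The lipid droplet coat protein Plin2 was at 377 and 136 CPM in KO and at 582 and 436 CPM in WT (−1.15, adjusted p = 0.008201). Cd34, a surface protein of undifferentiated satellite cells, was at 102 and 8.40 CPM in KO and at 175 and 29.3 CPM in WT (−1.29, SE 0.29, adjusted p = 0.003189). It was the only call of 16 quiescent satellite cell genes and was lower in index 1 than in index 0 in both genotypes. The ATP-gated channel P2rx7 was at 35.7 and 6.01 CPM in KO and at 89.3 and 15.0 CPM in WT, with a difference of −1.32 in each index (adjusted p = 0.003166). The protease inhibitor Slpi (−1.32) and the synaptic adhesion gene Nrxn2 (−1.44) were called here and not in the length fit (adjusted p = 0.09599 and 0.05714).

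Most genes called higher in KO, though not all, were also higher in index 1 than in index 0. All libraries compared had spent the same time in differentiation medium, so this is a contrast between libraries and not a time course. The indices also differed in Xist and in the trend with gene length, and the part of each was not tested. Of the 131 genes called higher in KO, 109 were also higher in index 1 than in index 0 in both genotypes, 98 of them by more than 1 log2 unit, and 22 were not. Over all 14482 genes tested, 1503 were higher in index 1 by more than 1 log2 unit in both genotypes, the count to set beside the 98. No such count is given beside the 109. Thbs1, Timp3 and Notch3 were lower in index 1 than in index 0 in WT, and Col15a1 was lower in both genotypes. Pisd-ps1, a pseudogene transcript, had 23.1 CPM in the KO library of index 0 against 0.131 CPM in that of index 1, and 1.25 and 0.0440 CPM in WT. Its called difference of 3.71 thus rests on 1 library, with a KO minus WT difference of 4.18 in index 0 and 1.18 in index 1. The kinase gene Stk32b, also among the 12 largest increases, was at 0.942 and 11.1 CPM in KO and at 0.319 and 1.53 CPM in WT (2.27, adjusted p = 0.001125).

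The called genes were then read in the other states, in separate libraries of freshly isolated quiescent cells (FI, 3 KO and 3 WT) and of proliferating cells in serum-rich medium (Cul, 2 KO and 2 WT), each table fitted alone with its index as a block. With the same fit 3 genes were called in Cul (0.0215%), 2 higher (0.0143%) and 1 lower (0.00716%), and 3 in FI (0.0194%), all lower. The calls in Cul were Col1a2 and H19, higher in KO, and Elovl4, lower. Those in FI were Hpse, Lmod2 and Rhoh, none of them among the genes called in Diff by the main fit. Lmod2, a member of the sarcomere list, went the other way in Diff. It was higher in KO_Diff in both indices (0.52 and 1.38) and was called in the length fit (1.06, adjusted p = 0.03221). The labels do not say whether the libraries of different states share animals. Of the 16 genes called lower in Diff, 14 were tested in Cul and all 14 were lower in KO there, against 36.7% of all genes that were lower in Diff. In FI 10 of 12 were lower (83.3%, against 62.7%). Of the 131 genes called higher, 76 of 113 were higher in KO in Cul (67.3%, against 44.0%) and 57 of 125 in FI (45.6%, against 56.2%). These counts use the fitted sign. In every index, 12 of 14 in Cul and 5 of 12 in FI were lower, against 1281 of 6601 and 1400 of 6624 for all genes lower in Diff. Likewise 55 of 113 in Cul and 23 of 125 in FI were higher in every index, against 1963 of 7091 and 1483 of 7256. The length trend was of the other sign in Cul (rho −0.254 and −0.286 in the indices), and with the length fit in each table the Cul shares were 14 of 14 and 82 of 113 (72.6%, against 51.4%).

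Elovl4 was low in KO in every state. It was at 3.27, 3.67 and 2.60 CPM in KO_FI and at 29.2, 22.0 and 32.3 CPM in WT_FI, a difference of −3.12 (SE 0.23, adjusted p = 0.08558). In Cul it was at 5.77 and 4.71 CPM in KO and at 20.2 and 20.2 CPM in WT (−1.95, SE 0.16, adjusted p = 0.04979). The groups did not overlap in any of the states. Ptgr1 was at 229 and 240 CPM in KO_Cul and at 416 and 417 CPM in WT_Cul (−0.83, adjusted p = 0.1196) and did not differ in FI by more than the spread between libraries (−0.06, SE 0.15). Col1a2 was at 53.1 and 17.7 CPM in KO_Cul and at 13.9 and 4.70 CPM in WT_Cul (1.92, SE 0.13, adjusted p = 0.03755). In FI, where type I collagen is far more abundant, it was at 1467, 485 and 447 CPM in KO and at 1479, 727 and 941 CPM in WT (−0.56, adjusted p = 0.6277). The sarcomere genes were not called in Cul, and Myog was low there, at 12.1 and 0.693 CPM in KO and 10.2 and 0.377 CPM in WT.

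**Figure D5:**
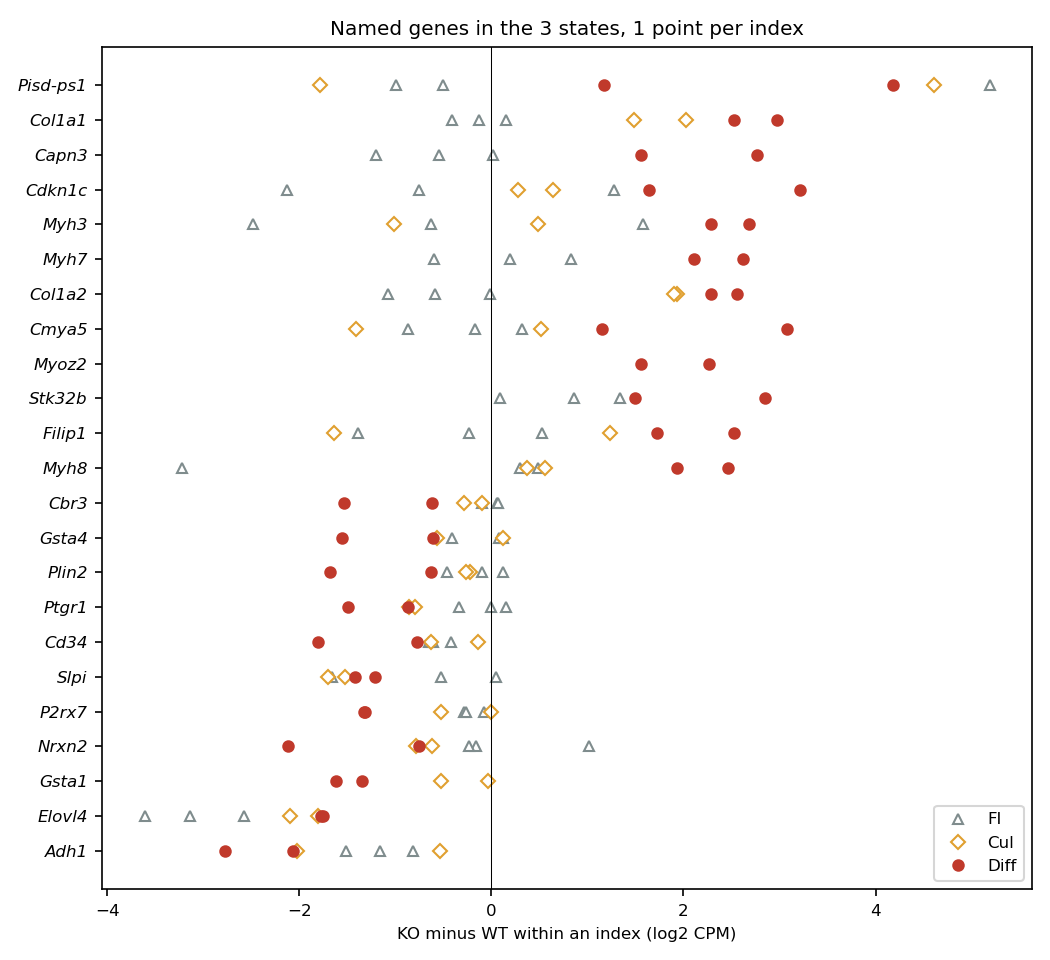
KO minus WT difference within each index (log2 CPM) of the 12 genes with the largest increases and the 11 named decreases, in FI (grey triangles, 3 indices), Cul (open diamonds, 2 indices) and Diff (red circles, 2 indices), where a state without a point is one in which the gene was not tested. Col1a1 and Col1a2 lie to the right of 0 in both indices of Cul, and all 3 FI points of Elovl4 lie left of its Diff points.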

How the data were processed

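PolyA RNA-seq of 2 KO_Diff and 2 WT_Diff libraries was taken from a table written per gene and library. The deposited fragments per gene are estimated counts, per the file headers, of which 1.42% to 1.6% per library departed from a whole number by more than 0.01. FPKM, which divides fragments by gene length and depth, was also deposited, scaled within the table per the file headers. Bowtie, TopHat, SICER, Cuffdiff and build mm9 appear in the submitters' processing notes, without roles. Which version of each was run is not given in the sources used here. The table lists 22552 genes by symbol without positions. Where any library had a status other than OK the gene was dropped, 19 in all, H19, Rbpj and Xirp2 among them. The column of conditions gives the group, and the letter for proliferating cells in its own table was matched to Cul because the other conditions were accounted for. Unused columns of values numbered 0.

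Estimated counts were rounded and fitted with edgeR 4.0.16 (robust quasi-likelihood F test after filterByExpr and TMM scaling) in R 4.3.3, with the table index as a block and Benjamini-Hochberg adjustment over all genes tested. The index was used as a block because the comparison was defined within each index. With 2 pairs the check of this pairing is the correlation of the index difference across genes (Pearson r = 0.79), and the labels do not say that an index marks a shared litter, batch or day. Differences within an index are log2 CPM with a prior count of 2 and have no test. Effective gene length was taken from the ratio of fragments to FPKM, and the length fit removes a smooth trend of each library's log2 level on length through offsets. Alternatives used DESeq2 1.42.0 and limma 3.58.1.

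The libraries compared, the gene lists and the tests were chosen with earlier results of these data known. The named genes are Sirt1, Pax7, Myf5, Myod1 and Myog, up to 12 genes per direction with the largest called change at a mean of at least 5 CPM in the higher group, and up to 4 members of each list with the smallest p together with its called members, predicted genes passed over. Some genes that meet this rule are not reported here. Further genes are said to be chosen after their values were seen. The lists are described by counts and medians, without a set test. No source says whether the counting used strand, so genes with an antisense partner or a near-identical copy are uncertain. The precision given by 71858446 to 82825550 fragments per library covers counting error only, and the 2 libraries per group limit every test.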

Additional observations from a re-analysis of the deposited data

Results flagged for a closer look

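Col1a2 is flagged because every pair of libraries moved one way in one state and the other way in another. Its KO minus WT difference was 2.42 in Diff, positive in both indices, and −0.56 in FI, negative in all 3 indices (−0.01, −0.58 and −1.07). The difference between the states was not tested.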

How the results depend on the processing

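The index block decides whether anything is called: with no replicate block edgeR called 0 genes (0 higher, 0 lower), also together with the gene length offset, and leaving out any library, which needs a fit with no block, gave 0 to 0. With the block kept, DESeq2-type size factors called 105 genes, no low-count filter 154, a filter of at least 1 CPM in 2 libraries 138, DESeq2 99 (90 higher, 9 lower), limma on log2(FPKM + 1) 10 (7 higher, 3 lower), limma on log2(FPKM + 0.1) 153 (114 higher, 39 lower), all statuses 158 and the length offset 140. The length offsets were chosen after seeing the data. Of the 67 called genes with values in the text, DESeq2-type size factors kept 53, DESeq2 54, limma on log2(FPKM + 0.1) 58 and on log2(FPKM + 1) 8, and none of these turned their sign. Myf5 turned to 0.019 with the length offset and to 0.014 with the offset and no block. The median of the cell cycle inhibitors turned to −0.033 in index 0 alone, and in index 1 alone that of the IGF list turned to −0.024 and of the fibroblast markers to −0.12. Leaving out a library without the block sets unequal shares of index 1 against each other, and the log2 differences then ranged as follows: Sirt1 −0.57 to 0.33, Pax7 −0.56 to 0.49, Myf5 −0.12 to 0.052, Myod1 −0.38 to 0.73, Myog −2.74 to 4.94, Myh3 −5.96 to 11.02, Myh8 −5.82 to 10.36, Myh7 −3.44 to 8.39, Myh1 −5.52 to 8.09, Mybph −5.21 to 9.03, Myoz2 −4.75 to 9.36, Ldb3 −3.60 to 6.62, Neb −1.25 to 4.20, Actc1 −5.31 to 8.56, Actn3 −1.51 to 4.78, Tnni1 −5.60 to 8.28, Tnnt3 −5.04 to 7.59, Csrp3 −6.18 to 9.69, Unc45b −3.87 to 7.87, Kbtbd10 −2.89 to 6.57, Capn3 −4.05 to 9.16, Klhl31 −0.91 to 3.87, Cmya5 −1.57 to 5.86, Filip1 −2.38 to 6.73, Trim72 −3.12 to 5.82, Sntb1 −0.69 to 4.04, Casq2 −4.79 to 7.62, Cacna1s −4.90 to 7.81, Trdn −3.20 to 5.81, Atp2a1 −2.13 to 4.37, Ryr1 −2.27 to 4.31, Ckm −5.55 to 9.98, Pgam2 −3.31 to 5.65, Cdkn1c −0.018 to 4.84, Igf2 −2.58 to 5.52, Col5a1 −0.14 to 2.55, Acta2 −2.25 to 4.63, Tagln −0.022 to 2.29, Abcc9 −2.98 to 5.94, P2rx7 −3.13 to 0.48, Cd34 −3.62 to 0.93, Pisd-ps1 −2.31 to 8.002, Wisp2 −0.092 to 2.80, Zdbf2 −0.40 to 3.14, Acta1 −4.63 to 6.82, Slc7a11 −1.83 to 0.51. List medians ranged likewise: myogenic transcription factors −0.11 to 0.50, sarcomere −4.42 to 6.28, sarcomere assembly factors −2.47 to 4.23, myoblast fusion and membrane −0.0295 to 0.93, excitation-contraction coupling and synapse −1.54 to 1.75, muscle energy enzymes −2.62 to 2.94, lipid elongation and oxidation −0.31 to 0.22, cell cycle inhibitors −0.11 to 0.48, quiescent satellite cell −0.48 to 0.53. The lymphocyte and erythroid lists had no member left under the filter of 1 CPM. With 2 libraries per group, no residual degree of freedom is left when a pair is broken under the block.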

Other observations

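Several genes outside the rule for named genes, chosen here after their values were seen, kept their direction between Diff and freshly isolated cells. The potassium channel subunit Kcne4 was at 0.302 and 0.590 CPM in KO_Diff and at 3.14 and 3.02 CPM in WT_Diff (log2 difference −2.85, adjusted p = 0.0002 by edgeR). In the FI table it was at 85.1, 67.7 and 58.0 CPM in KO and at 282, 217 and 264 CPM in WT (−1.87, SE 0.14, adjusted p = 0.0803). Doublecortin, Dcx, a microtubule binding protein, was at 0.221 and 1.23 CPM in KO_Diff and at 0.0569 and 0 CPM in WT_Diff, and at 22.3, 20.6 and 19.3 CPM in KO_FI and 3.62, 1.37 and 2.64 CPM in WT_FI (3.09 in FI, adjusted p = 0.154). The call of Dcx in Diff ended in the length fit (adjusted p = 0.1068). The matricellular gene Wisp2 was at 6.34 and 27.7 CPM in KO_Diff and at 2.44 and 11.5 CPM in WT_Diff (1.32, adjusted p = 0.0267). In FI it was at 20.6, 23.0 and 18.7 CPM in KO and at 9.10, 10.002 and 7.996 CPM in WT (1.20, adjusted p = 0.154). None of these 3 genes was called in FI, and their shared direction follows from how they were chosen.

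Imprinted genes, which are expressed from 1 parental allele, were gathered in a list made after the values were seen. The share of calls in this list therefore depends on that choice and is a description only. Of 32 measured members 7 rose in KO_Diff, against 0.905% of all genes: Cdkn1c, Igf2, Zdbf2 (28.6 and 311 CPM in KO, 19.2 and 58.6 CPM in WT, 1.49), Peg3, Peg10, Zim1 and Apeg3, the last uncertain as an antisense partner of Peg3. The median of the list was 0.20, with 0.05 in index 0 and 0.44 in index 1. In the length fit 3 members were called, and the calls of Peg3 (adjusted p = 0.0732), Peg10 (0.05487), Zim1 (0.1535) and Apeg3 (0.5022) ended. H19, the partner of Igf2, was left out for its status.

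Keratins of basal epithelium were called higher at very low levels. Krt17 was at 2.16 and 0.197 CPM in KO and at 0.0569 and 0 CPM in WT, Krt14 at 0.849 and 0.210 CPM in KO and at 0.0683 and 0 CPM in WT, and Krt5 at 0.186 and 0.433 CPM in KO and at 0.0114 and 0 CPM in WT. With WT at or near 0 no fold is given, and the call of Krt5 ended in the length fit (adjusted p = 0.05776).

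The length fit called 33 genes that the fit without it did not, also seen only after the values. Skeletal actin Acta1 (105 and 10331 CPM in KO, 46.0 and 5376 CPM in WT) had a log2 difference of 1.07 without the offset (adjusted p = 0.08601) and of 1.20 with it. The cystine transporter Slc7a11, a member of the detoxification list, was at 212 and 73.0 CPM in KO and at 415 and 101 CPM in WT, with −0.72 without the offset (adjusted p = 0.312) and −1.04 with it. The fusion genes Tmem8c (myomaker) and Gm7325 (myomixer) were among the 33.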
